A study of Mus musculus with 14 samples.

Results

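The genes described here are 10 core genes of MHC class I antigen presentation, *H2-K1*, *H2-D1*, *B2m*, *Tap1*, *Tap2*, *Tapbp*, *Psmb8*, *Psmb9*, *Psmb10* and *Nlrc5*, taken by name. They were 10 of 39179 genes in the table of the differentiation time course and 10 of 35886 genes in the files of the sorted cells, and all 10 passed the filter on low values in both experiments. Both experiments used Ocy454 cells, a mouse line with features of osteocytes, immortalized conditionally by a thermosensitive large T antigen and expanded at a permissive temperature before differentiation. The time course sampled differentiation days 1, 7, 10 and 14, each as 2 biologic replicates. The sort gave 3 CD61high and 3 CD61low libraries, from the 10% of live cells with the highest and the lowest surface CD61 (integrin beta 3) after 17 days of culture. Both fractions were taken from 3 separate groups of cells, and whether libraries of equal replicate number came from the same group is not stated in the sources used here. All cells came from 1 line with no further treatment or genotype, so the spread between libraries covers cultures and sorts of that line only. The H-2 haplotype of the line is not given in the sources used here, and reads were assigned to a reference sequence of these highly variable genes.

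MHC class I molecules show peptides from inside a cell to CD8 T cells. Proteasomes cut proteins into peptides, the TAP transporter carries the peptides into the endoplasmic reticulum, tapasin holds empty class I molecules at the transporter until a peptide is bound, and the complex of heavy chain, beta-2 microglobulin and peptide then moves to the cell surface. Interferon exchanges the constitutive catalytic subunits of the proteasome for inducible ones, and NLRC5 drives transcription of class I genes by assembling on a set of conserved promoter boxes.

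The promoters are shown first because these genes are known for sharing regulatory boxes. RefSeq's promoter table (GRCm38.p6, 250 bases before to 50 bases after each start) held 8 of the 10 genes, and each sequence was found once in GRCm39, whose coordinates are given. Capitals mark TGACG (core of the X2 or CRE box), CCAAT or its complement ATTGG (core of the Y box) and, in *B2m*, a match to GAAANNGAA (core of an interferon regulatory factor element). The 150 bases before the start of the 3 structural class I genes, at chr17:34219322-34219471 (minus strand), chr17:35481920-35482069 (plus strand) and chr2:121978018-121978167 (plus strand), and the 225 bases between the divergent starts of *Psmb9* and *Tap1*, at chr17:34406305-34406529 (plus strand, the direction of *Tap1*), read as follows.
H2-K1: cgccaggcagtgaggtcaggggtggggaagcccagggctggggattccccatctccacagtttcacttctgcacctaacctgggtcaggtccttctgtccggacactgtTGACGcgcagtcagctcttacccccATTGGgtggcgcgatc
H2-D1: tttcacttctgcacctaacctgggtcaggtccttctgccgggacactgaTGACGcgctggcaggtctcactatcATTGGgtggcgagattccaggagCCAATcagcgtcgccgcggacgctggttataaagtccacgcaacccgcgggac
B2m: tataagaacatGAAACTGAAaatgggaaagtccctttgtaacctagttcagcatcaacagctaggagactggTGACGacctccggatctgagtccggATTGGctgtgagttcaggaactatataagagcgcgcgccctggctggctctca
Psmb9 to Tap1: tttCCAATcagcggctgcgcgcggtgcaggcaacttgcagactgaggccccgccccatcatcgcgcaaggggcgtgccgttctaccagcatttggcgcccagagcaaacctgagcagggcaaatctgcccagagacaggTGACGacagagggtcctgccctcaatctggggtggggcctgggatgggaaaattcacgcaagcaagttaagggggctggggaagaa

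On either strand, CCAAT was present in the 300-base windows of 6 of the 8 genes and in 37.4% of all 32851 promoters of the table. TGACG was present in 5 of the 8 genes and in 20.8% of all promoters. In *H2-K1*, *H2-D1* and *B2m* the TGACG was followed by 20 bases and then ATTGG, an arrangement chosen after the matches were seen, which 31 of the 32851 promoters (0.0944%) held on either strand. GAAANNGAA was found in *B2m* alone of the 8, against 8.56% of all promoters. Only these letters were searched, so the count does not show that the other promoters lack an interferon element. The stretch tttcacttct, printed above for both *H2-K1* and *H2-D1*, does not match these letters and was not tested. GGGCGG (core of an Sp1 site) was found in *Psmb9*, *Tap1* and *Tapbp*, against 35.7%. The windows of *Psmb9* and *Tap1* overlap, and their matches to the Y box, X2 box and Sp1 cores are the same bases, so each of these counts includes that site for both genes. These are matches of letters in a fixed window, and binding was not measured. *Tap2* and *Nlrc5* were not among the entries.

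The time course libraries held 27518605 to 34311238 reads on genes, and the sorted libraries 18815602 to 19220064 estimated counts. The 10 genes were well covered in the time course, from 168 to 353 reads a library for *Psmb9*, the least covered, up to 24402 to 46779 reads for *B2m*. In the sort *Psmb9* had 91.0 to 258 estimated counts and *B2m* 22967 to 26513. As a check of the labels, *Itgb3*, which encodes CD61, was at 5.31 to 6.10 CPM in CD61low cells and at 100.1 to 130.1 CPM in CD61high cells. Of 8 osteocyte-line markers 7 could be tested, and from day 1 to day 14 5 rose, while *Pdpn* (Log2FC -0.53) and *Col1a1* (Log2FC -0.47) fell. In the sort 6 were higher in CD61high cells and *Pdpn* was lower (Log2FC -0.48). *Dmp1* was at 20.45 CPM or more from day 7 to day 14 but at 0.328 to 0.879 CPM in CD61low and 8.87 to 16.2 CPM in CD61high cells, and *Mepe* stayed below 1 CPM in every library of both experiments. T and NK cell markers summed to at most 0.0938 CPM and endothelial markers to at most 0.383 CPM in any library. Of 8 macrophage markers, 6 had a mean below 1 CPM in each sorted group, *Adgre1* being at 0 in all of these libraries, and *Cd68* and *Cd14* were the ones above it.

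Levels of different genes can be compared only per length, which the TPM values of the sorted libraries allow. On that scale *B2m* was the highest of the 10, at 3272 to 3862 TPM over the 6 libraries. *H2-K1* followed at 981 to 1732 TPM and *H2-D1* at 613 to 802 TPM. *Tapbp* lay at 85.7 to 174 TPM. The ranges of these 4 genes did not overlap each other or those of the remaining 6. The order of these 6 differed between the sorted groups. In CD61low cells *Psmb8* came first (60.6 to 71.4 TPM), above *Psmb10*, *Tap1* and *Tap2*, which overlapped each other (44.8 to 59.8 TPM), with *Nlrc5* and *Psmb9* lowest. In CD61high cells *Psmb8*, at 16.5 to 18.0 TPM, lay below *Psmb10*, *Tap1* and *Tap2* and overlapped *Nlrc5*. Without a correction for length *H2-K1* lay below *H2-D1*: its estimated counts (5218 to 10083) were under those of *H2-D1* (11850 to 16049), and 40.0 to 45.0% of them fell on transcripts with a retained intron, against 0.278 to 0.737% for *H2-D1*.

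**Figure D1:**
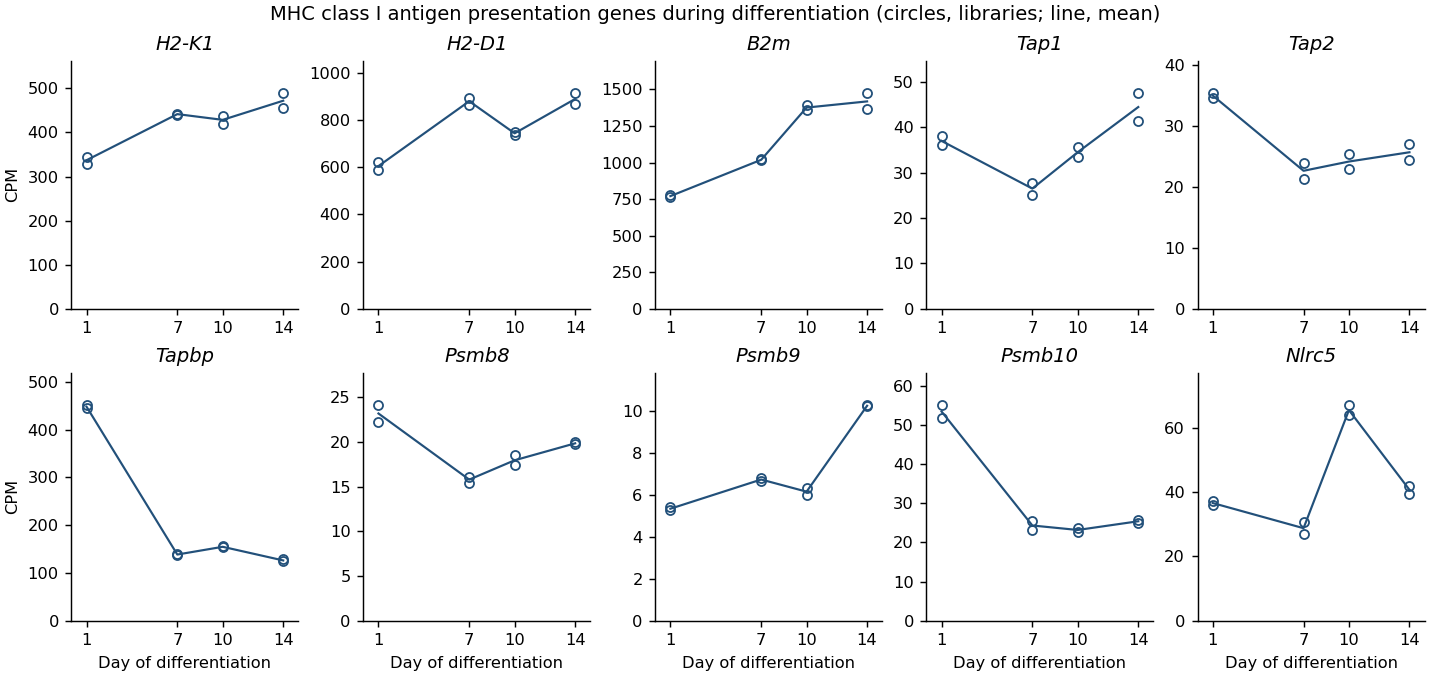
CPM of each of the 10 genes (vertical axis, from 0, a scale of its own per gene) against the day of differentiation, with a circle for each of the 2 libraries a day and a line through the means. The heavy chains and *B2m* were higher on day 14 than on day 1, *Tapbp* and *Psmb10* dropped between days 1 and 7, and *Nlrc5* was highest on day 10.

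In the time course the question was which genes change as the cells differentiate. The 3 structural genes rose from day 1 to day 14 and the genes that make and load peptides went different ways, with *Tapbp* and *Psmb10* falling to 0.282 and 0.475 of their day 1 level. Values are the deposited CPM, and Log2FC is on the log2(CPM + 1) scale with its standard error from limma, adjusted over 12725 genes. That standard error pools the 4 days and is drawn toward the spread of genes of like level. A gene passed the test at an adjusted p below 0.01 and was called when its Log2FC was also above 1 or below -1. In bulk RNA, fewer cells that express a gene and less RNA per cell cannot be told apart.

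*H2-K1* (ENSMUSG00000061232, GRCm39 chr17:34214987-34219321, minus strand) and *H2-D1* (ENSMUSG00000073411, chr17:35481691-35486475, plus strand) encode the classical heavy chains. *H2-K1* was at 345 and 329 CPM on day 1, 440.5 and 443 on day 7, 438 and 419.5 on day 10, and 455 and 489 on day 14. Both libraries of every later day were above both of day 1. The Log2FC from day 1 to day 7 was 0.39 ± 0.039 (limma adjusted p = 2.24e-09) and from day 1 to day 14 0.48 ± 0.039 (limma adjusted p = 2.10e-11). *H2-D1* was at 623 and 586 CPM on day 1, 866 and 894 on day 7, 750.4 and 737 on day 10, and 866 and 913 on day 14. It rose to day 7 (Log2FC 0.54), fell to day 10 (Log2FC -0.24, limma adjusted p = 8.55e-06) and rose again to day 14 (Log2FC 0.26, limma adjusted p = 3.04e-06), while *H2-K1* gave a Log2FC of -0.04 from day 7 to day 10 that missed the threshold (limma adjusted p = 0.347). The ratio of *H2-K1* to *H2-D1* CPM within a library lay between 0.495 and 0.583 on all 4 days. The 2 genes share sequence: 11.3% of the 50-base windows of *H2-K1* transcripts and 12.6% of those of *H2-D1* also occur in transcripts of another gene, most often of each other, so reads from those stretches cannot be assigned to 1 of them.

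*B2m* (ENSMUSG00000060802, chr2:121977957-121983594, plus strand), the light chain common to all class I molecules, was at 776 and 765 CPM on day 1 before reaching 1023 and 1015 CPM on day 7. It was at 1357 and 1394 CPM on day 10 and 1363 and 1473 on day 14. Days 10 and 14 overlapped each other and stood above day 7, which stood above day 1. The rise from day 1 to day 14 was 1.84-fold (Log2FC 0.88 ± 0.040, limma adjusted p = 1.04e-16). The gene lies wholly within *Patl2* on the opposite strand, whose own level was at most 0.0583 CPM.

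*Tap1* (ENSMUSG00000037321, chr17:34405996-34416199, plus strand) and *Tap2* (ENSMUSG00000024339, chr17:34422501-34435829, plus strand) encode the chains of the peptide transporter, and their courses parted after day 7. *Tap1* was at 38.0 and 36.0 CPM on day 1, 27.8 and 25.2 on day 7, 35.6 and 33.4 on day 10, and 41.5 and 47.5 on day 14. It fell to day 7 (Log2FC -0.47), rose to day 10 (0.37) and rose again to day 14 (0.35), and the day 14 libraries stood above those of all other days. The Log2FC from day 1 to day 14 was 0.26 ± 0.068 (limma adjusted p = 0.00142). It passed the test with all libraries but not without day 1 replicate 2 or day 14 replicate 2, or with no filter on low values. *Tap2* was at 35.3 and 34.6 CPM on day 1, 23.9 and 21.3 on day 7, 25.3 and 22.95 on day 10, and 24.3 and 27.0 on day 14. Day 10 overlapped days 7 and 14, day 7 lay below day 14, and all 3 lay below day 1, with a Log2FC from day 1 to day 14 of -0.43 ± 0.073 (limma adjusted p = 7.59e-06).

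*Tapbp* (ENSMUSG00000024308, chr17:34134873-34148267, plus strand) encodes tapasin and had the largest change of the 10 over the time course. It was at 451 and 445 CPM on day 1, 139 and 137 on day 7, 153 and 156 on day 10, and 124 and 128 on day 14. All 6 later libraries lay at or below 156 CPM, far under the 2 of day 1. From day 1 to day 7 it fell by 1.69 on the log2 scale (SE 0.037, limma adjusted p = 1.54e-23), a level 3.23-fold lower, and from day 1 to day 14 it fell by 1.82 (SE 0.037, limma adjusted p = 1.83e-24), 3.55-fold lower. The smaller rise from day 7 to day 10 (Log2FC 0.16) missed the threshold under TMM scaling, with edgeR on recovered reads or without day 7 replicate 2. *Tapbp* overlaps *Zbtb22* on the same strand over 3422 bases. Of the 50-base windows of *Tapbp* transcripts, 16.8% also occur in transcripts of other genes, 384 in all, of which *Zbtb22* shares the most. *Zbtb22* stayed between 34.4 and 52.7 CPM in the time course and, in the sort, went the other way from *Tapbp*, at 31.5 to 33.5 CPM in CD61low and 40.1 to 47.5 CPM in CD61high cells. Within a library the ratio of *Tapbp* CPM to the sum of *H2-K1* and *H2-D1* CPM went from 0.465 and 0.486 on day 1 to 0.0939 and 0.0915 on day 14.

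The 3 inducible subunits of the immunoproteasome did not move together. *Psmb8* (ENSMUSG00000024338, chr17:34416690-34420428, plus strand), which replaces *Psmb5*, was at 24.1 and 22.3 CPM on day 1, 15.45 and 16.1 on day 7, 18.5 and 17.4 on day 10, and 19.7 and 19.9 on day 14. It fell to day 7 (Log2FC -0.53, limma adjusted p = 9.21e-07), and its Log2FC of -0.21 from day 1 to day 14 missed the threshold (limma adjusted p = 0.0126). *Psmb9* (ENSMUSG00000096727, chr17:34400960-34406738, minus strand), which replaces *Psmb6*, was at 5.43 and 5.27 CPM on day 1, 6.84 and 6.65 on day 7, 6.34 and 5.99 on day 10, and 10.3 and 10.2 on day 14. The day 14 libraries stood above all others, and the rise from day 10 was 1.67-fold (Log2FC 0.65 ± 0.10, limma adjusted p = 3.72e-06). *Psmb10* (ENSMUSG00000031897, chr8:106662362-106665077, minus strand), which replaces *Psmb7*, was at 55.1 and 51.9 CPM on day 1, 25.5 and 23.2 on day 7, 23.7 and 22.7 on day 10, and 25.0 and 25.9 on day 14. The drop to day 7 was 2.20-fold (Log2FC -1.11 ± 0.065, limma adjusted p = 5.48e-14), and no later step passed the test. In the GENCODE gene models the start regions of *Tap1* and *Psmb9* overlap by 743 bases on opposite strands, unlike the RefSeq starts above, which have 225 bases between them. Whether counting used strand is not stated, so reads of the 2 genes in that stretch cannot be told apart.

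Set against its constitutive partner within each library, *Psmb8* was at 0.764 and 0.713 of *Psmb5* CPM on day 1, 0.583 and 0.623 on day 7, 0.856 and 0.799 on day 10, and 1.19 and 1.14 on day 14. These ratios are not corrected for length, so only their change between days can be read. The constitutive *Psmb5* fell at every step, from 31.5 and 31.2 CPM on day 1 to 16.6 and 17.5 on day 14 (Log2FC -0.84, limma adjusted p = 1.53e-11). The ratio of *Psmb9* to *Psmb6* went from 0.0260 and 0.0260 on day 1 to 0.0616 and 0.0572 on day 14, with *Psmb6* falling (Log2FC -0.25). The ratio of *Psmb10* to *Psmb7* went the other way, from 0.266 and 0.249 to 0.177 and 0.181, although *Psmb7* also fell (Log2FC -0.54).

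*Nlrc5* (ENSMUSG00000074151, chr8:95160984-95253900, plus strand), the class I transactivator, had a peak on day 10. It was at 37.3 and 35.8 CPM on day 1, 30.6 and 26.9 on day 7, 64.0 and 66.9 on day 10, and 42.0 and 39.4 on day 14. Both day 10 libraries stood above all 6 others. It rose 2.28-fold from day 7 to day 10 (Log2FC 1.16 ± 0.061, limma adjusted p = 2.30e-14) and fell from day 10 to day 14 (Log2FC -0.67 ± 0.061, limma adjusted p = 5.88e-10). *B2m* also rose from day 7 to day 10 (Log2FC 0.43, limma adjusted p = 8.65e-10), the step in which *H2-K1* missed the threshold and *H2-D1* fell. From day 10 to day 14, while *Nlrc5* fell, *H2-D1* rose, *H2-K1* rose by a Log2FC of 0.14 that did not pass without day 10 replicate 2 or day 14 replicate 2, with no filter on low values or with the libraries of these days alone, and *B2m* gave a Log2FC of 0.04 that missed the threshold (limma adjusted p = 0.357). Summed macrophage markers (7 of the 8 in the table) also stood highest on day 10, at 10.4 to 11.9 CPM against 4.77 to 7.97 CPM on the other days. Of these *Cd68* went from 1.68 and 1.69 CPM on day 7 to 4.73 and 4.54 on day 10 and 3.41 and 3.27 on day 14, and *Cd14* from 3.00 and 3.24 to 5.48 and 6.67 and then 2.33 and 3.38. The 5 others were below 1 CPM on every day, with *Tyrobp* at 0 in all 8 libraries. By their means *Csf1r* (0.633 CPM) and *Ptprc* (0.0461 CPM) were highest on day 1, *Lyz2* (0.273 CPM) on day 14 and *Itgam* (0.0648 CPM) on day 10. Summed class II markers, mostly *Cd74*, instead went from 7.12 to 7.14 CPM on day 1 down to 2.25 to 2.56 CPM on day 14 (*Cd74* Log2FC -1.28, limma adjusted p = 1.02e-09). Their part in the result was not tested.

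**Figure D2:**
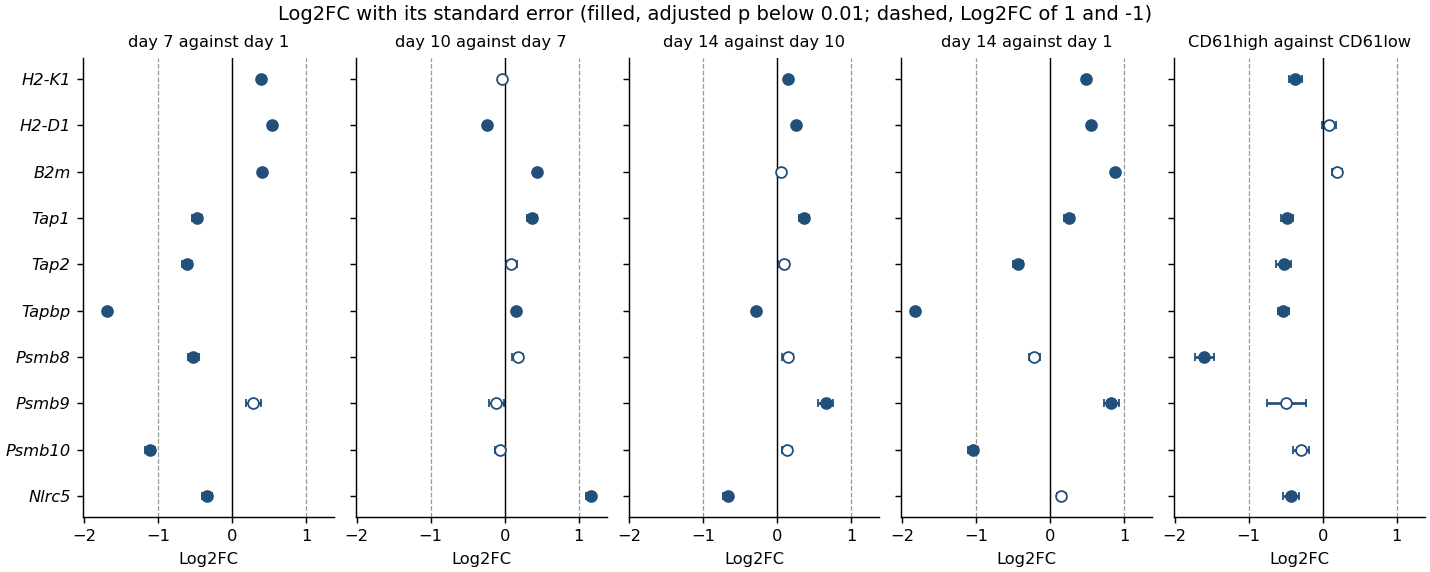
Log2FC (horizontal axis) of each gene (vertical axis) in the 5 comparisons with its standard error as a bar, filled where the adjusted p was below 0.01, with dashed lines at 1 and -1. In the first step the heavy chains and *B2m* lie right of 0 and 6 of the other genes left of it, and in the sort no filled point lies right of 0.

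From day 1 to day 7, 3 of the 10 genes rose (*H2-K1*, *H2-D1*, *B2m*) and 6 fell (*Tap1*, *Tap2*, *Tapbp*, *Psmb8*, *Psmb10*, *Nlrc5*), where 24.5% of all genes tested rose and 32.0% fell. Of these, 0 were called higher and 2 lower (*Tapbp*, *Psmb10*), against 4.49% and 4.62% of all genes. By edgeR on recovered reads 0 were also called higher and 4 passed as higher, the added gene being *Psmb9*, and by limma 4 had a Log2FC above 0 with an unadjusted p under 0.05. The median Log2FC was -0.40 over the 10 genes and -0.05 over all genes. From day 7 to day 10, 4 genes rose (*B2m*, *Tap1*, *Tapbp*, *Nlrc5*) and 1 fell (*H2-D1*), against 29.8% and 18.9% of all genes. *Nlrc5* was the 1 gene called higher (1.43% of all genes) and 0 were called lower (0.786%), by edgeR on recovered reads also 0, with 1 gene lower at an unadjusted p under 0.05 by limma. From day 10 to day 14, 4 rose (*H2-K1*, *H2-D1*, *Tap1*, *Psmb9*) and 2 fell (*Tapbp*, *Nlrc5*), against 22.9% and 30.0%. None was called in that step by limma or by edgeR (0 of 10, against 2.09% higher and 0.872% lower of all genes), and 6 had an unadjusted p under 0.05 by limma. From day 1 to day 14, 5 rose (*H2-K1*, *H2-D1*, *B2m*, *Tap1*, *Psmb9*) and 3 fell (*Tap2*, *Tapbp*, *Psmb10*), against 32.6% and 36.0%. Of these, 0 were called higher (7.51% of all genes), by edgeR also 0 with 6 passing as higher, *Nlrc5* among them, and by limma 6 were higher at an unadjusted p under 0.05. Of the 10 genes 2 were called lower (5.90%), again *Tapbp* and *Psmb10*. All percentages of these steps are shares by limma at the adjusted p or the call rule. No share of all genes stands beside the edgeR counts or those at an unadjusted p, so these counts cannot be judged against all genes.

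**Figure D3:**
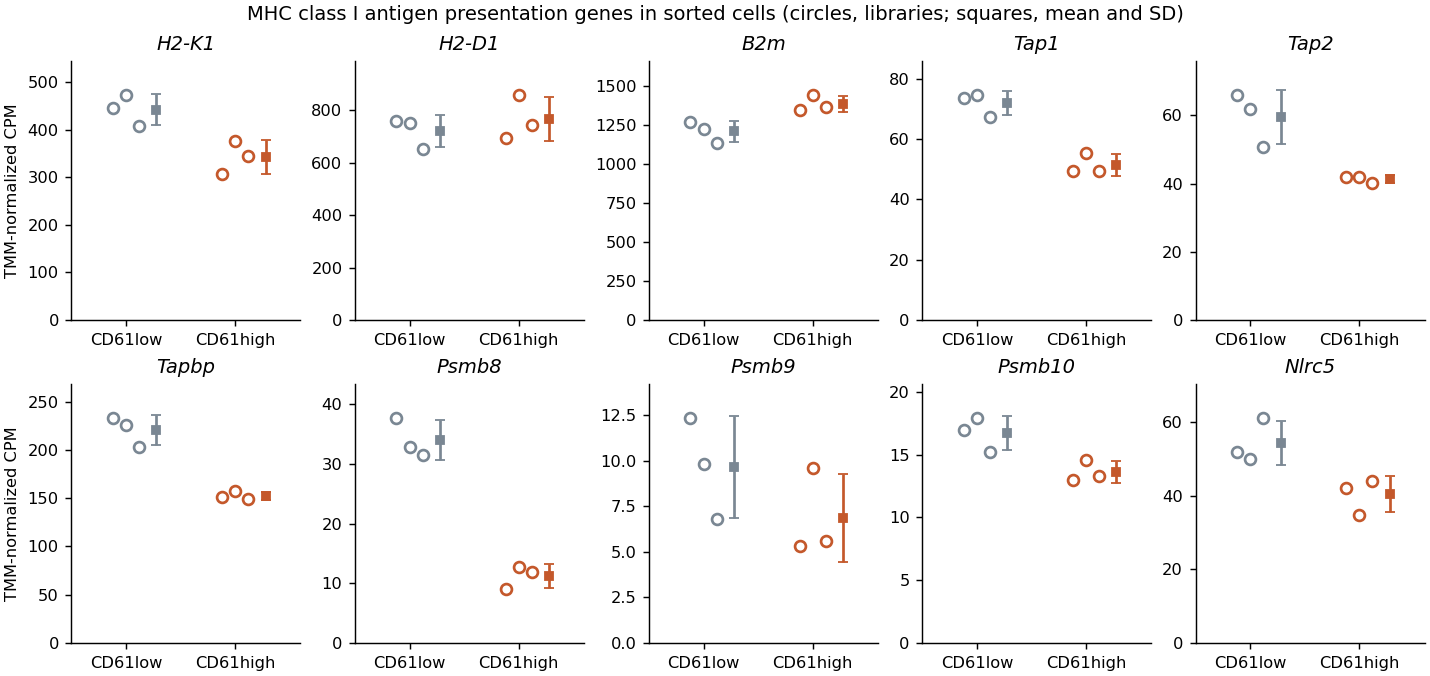
TMM-normalized CPM of each of the 10 genes (vertical axis, from 0, a scale of its own per gene) in the 3 CD61low and 3 CD61high libraries as circles, with the mean and SD beside them as a square and bar. The *Psmb8* libraries of CD61high cells sit between 9.03 and 12.7 CPM, under those of CD61low cells at 31.5 to 37.7.

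The sort asked how cells with much surface CD61 differ from cells with little. Of the 10 genes 6 passed the test as lower in CD61high cells and 0 as higher, where 16.0% and 19.4% of all genes did, and by DESeq2 also 0 passed as higher, with 1 gene higher at an unadjusted p under 0.05 by edgeR. No share of all genes stands beside the DESeq2 count or the count at an unadjusted p. Values are CPM after TMM scaling, and Log2FC is CD61high relative to CD61low from edgeR's quasi-likelihood test, adjusted over 12077 genes.

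*Psmb8* stood out by size. It was at 37.7, 32.9 and 31.5 CPM in the CD61low libraries and at 9.03, 12.7 and 11.9 CPM in the CD61high libraries. The groups did not overlap, and the level in CD61high cells was 3.03-fold lower (Log2FC -1.60 ± 0.13, edgeR adjusted p = 6.71e-06). The estimated counts behind it were 645 to 789 in CD61low and 154 to 221 in CD61high cells, and both of its main coding transcripts were lower: the first had 354 to 389 counts in CD61low and 43.6 to 152 in CD61high cells, and the second 186 to 263 and 37.8 to 74.3. *Psmb9* was at 12.3, 9.81 and 6.79 CPM in CD61low and at 5.34, 9.61 and 5.59 CPM in CD61high cells. These groups overlapped, and its Log2FC of -0.49 ± 0.26 missed the threshold (edgeR adjusted p = 0.144). *Psmb10* was at 16.9, 17.9 and 15.2 against 13.0, 14.6 and 13.3 CPM, groups that did not overlap, with a Log2FC of -0.29 ± 0.11 (edgeR adjusted p = 0.0464).

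The constitutive subunits, measured in the same libraries, gave Log2FC values of -0.25 (*Psmb5*), -0.16 (*Psmb6*) and -0.17 (*Psmb7*), with overlapping groups and edgeR adjusted p values of 0.154, 0.202 and 0.117. Of the summed TPM of the 6 catalytic subunit genes, *Psmb8*, *Psmb9* and *Psmb10* made up 21.6%, 20.7% and 20.03% in the CD61low libraries and 14.6%, 12.7% and 14.2% in the CD61high libraries. The means were 20.8% ± 0.782 (SD, n = 3) and 13.8% ± 1.00 (SD, n = 3), and the difference of -6.97 percentage points had p = 0.1 in a two-sided exact permutation test, the smallest p that 3 against 3 libraries allow. Were libraries of equal number paired, sign flips would give p = 0.25 in an exact permutation test, the smallest that 3 pairs allow. Without *Psmb8* and *Psmb5* the share was 13.7% ± 1.32 and 11.7% ± 1.59 (SD), with overlapping groups and a difference of -2.03 percentage points (exact permutation p = 0.3, computed after the data were seen). The ratio of *Psmb8* to *Psmb5* TPM was 0.826, 0.830 and 0.957 in CD61low and 0.352, 0.393 and 0.265 in CD61high cells, without overlap. The ratios of *Psmb9* to *Psmb6* and of *Psmb10* to *Psmb7* overlapped between the groups.

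**Figure D4:**
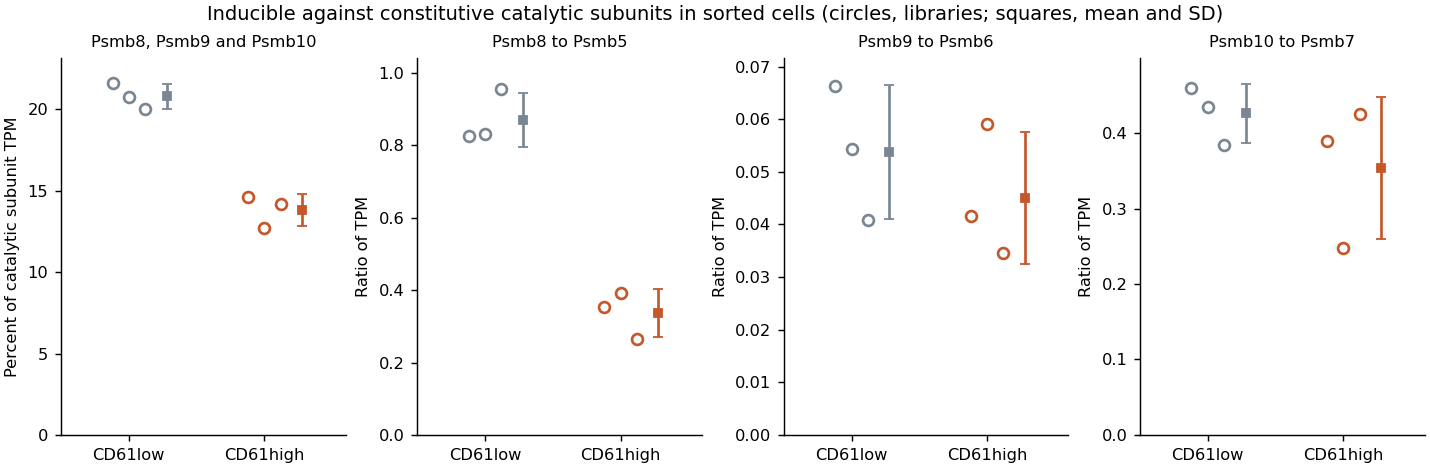
Left panel, the percent of the summed TPM of the catalytic subunit genes that fell on *Psmb8*, *Psmb9* and *Psmb10* in each sorted library, and in the other panels the ratio of TPM of each inducible gene to its constitutive partner, with the mean and SD as a square and bar. The groups are apart in the share (20.03 to 21.6% against 12.7 to 14.6%) and in the ratio of *Psmb8* to *Psmb5*, and overlap in the other ratios.

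The transporter and tapasin genes were lower in CD61high cells by similar amounts. *Tap1* was at 73.7, 74.7 and 67.5 CPM in CD61low and at 49.4, 55.5 and 49.3 in CD61high cells (Log2FC -0.49 ± 0.080, edgeR adjusted p = 6.09e-04). *Tap2* was at 66.0, 61.9 and 50.7 against 42.0, 42.0 and 40.1 CPM (Log2FC -0.53 ± 0.10, edgeR adjusted p = 0.00150). *Tapbp* was at 233, 225 and 203 against 151, 157 and 149 CPM (Log2FC -0.53 ± 0.074, edgeR adjusted p = 2.03e-04). For none of these 3 did the groups overlap, *Tap2* missed the threshold without CD61low replicate 2, and the means in CD61low cells were 1.40 (*Tap1*), 1.44 (*Tap2*) and 1.45 (*Tapbp*) times those in CD61high cells. Of the counts of *Tap2*, 84.0 to 92.6% were assigned to 1 transcript annotated with a retained intron, and the coding transcript of *Tap2* had 125, 174 and 152 estimated counts in CD61low and 103, 54.3 and 109 in CD61high cells. *Nlrc5* was at 51.9, 49.9 and 61.1 against 42.1, 34.8 and 44.1 CPM (Log2FC -0.43 ± 0.11, edgeR adjusted p = 0.00803), groups that did not overlap, but the adjusted p rose above 0.01 when any 1 of the 6 libraries was left out, to between 0.0103 and 0.0250.

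The heavy chains and light chain parted in the sort. *H2-K1* was at 445, 473 and 408 CPM in CD61low and at 306, 376 and 344 in CD61high cells, without overlap (Log2FC -0.37 ± 0.090, edgeR adjusted p = 0.00637). *H2-D1* was at 759.7, 753 and 652 against 695, 859.6 and 743 CPM, with overlap (Log2FC 0.09 ± 0.095, edgeR adjusted p = 0.472). *B2m* was at 1268, 1225 and 1136 CPM against 1347, 1442 and 1366, with every CD61high library above every CD61low library and a Log2FC of 0.20 ± 0.071 that missed the threshold (edgeR adjusted p = 0.0416). Within a library the ratio of *H2-K1* to *H2-D1* TPM was 1.99, 2.16 and 2.17 in CD61low and 1.60, 1.55 and 1.59 in CD61high cells. *H2-K1* did not pass without CD61low replicate 1 or 2 or CD61high replicate 1 or 3 (edgeR adjusted p = 0.0200 to 0.0326) and passed when CD61low replicate 3 or CD61high replicate 2 was the library left out. When the estimated counts of *H2-K1*, *H2-D1* and the H2-Q genes were pooled into 1 gene, its Log2FC was -0.12 (edgeR adjusted p = 0.298). TMM factors were 1.10 to 1.13 in CD61low and 0.895 to 0.909 in CD61high libraries, and under scaling by library size alone the median over all genes was a Log2FC of -0.29, and there *B2m* (-0.11) and *H2-D1* (-0.21) changed sign but still lay above that median.

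The 6 genes that passed as lower in CD61high cells were *H2-K1*, *Tap1*, *Tap2*, *Tapbp*, *Psmb8* and *Nlrc5*. With an offset for transcript length *H2-K1* (edgeR adjusted p = 0.0175) and *Nlrc5* (edgeR adjusted p = 0.0220) did not pass, which left 4. *B2m* was the 1 gene higher at an unadjusted p under 0.05. Of the 10 genes 0 were called higher (4.84% of all genes), by DESeq2 also 0, and 1 lower (4.37% of all genes), *Psmb8*. The shares of all genes depend on the scaling: 585 were called higher and 528 lower with TMM, against 316 and 963 of 12045 by library size alone. The median Log2FC of the 10 genes was -0.46 and that of all genes 0.0035. Beside these values, summed class II antigen presentation markers were at 30.2 to 38.4 CPM in CD61low and at 1.70 to 2.71 CPM in CD61high cells. Almost all of it came from *Cd74*, the class II invariant chain, and the 4 others were below 1 CPM in both groups. *Ciita*, *H2-Aa* and *H2-Eb1* were at 0 in CD61high cells and at most at 0.0957, 0.328 and 0.0488 CPM in CD61low cells. *H2-Ab1* was at 0.195 to 0.375 CPM in CD61low and 0 to 0.235 CPM in CD61high cells. Summed macrophage markers were at 17.1 to 22.7 and at 12.5 to 13.2 CPM, mostly from *Cd68*, at 12.2 to 15.3 and 7.12 to 8.57 CPM (Log2FC -0.81, edgeR adjusted p = 7.72e-04), and *Cd14*, at 4.32 to 6.88 and 3.70 to 4.43 CPM. Their part in the result was not tested.

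Of the 6 other genes of peptide loading and trimming, 5 were lower in CD61high cells, where 16.0% of all genes were, with a median Log2FC of -0.84 over the 6. Calreticulin (*Calr*), a chaperone of the loading complex, had a mean of 892 CPM in CD61high and 2115 CPM in CD61low cells (Log2FC -1.25, edgeR adjusted p = 1.28e-06). ERp57 (*Pdia3*), which partners tapasin, was at 548 against 1170.3 CPM (Log2FC -1.09), and *Erap1*, the peptidase that trims peptides in the endoplasmic reticulum, at 11.6 against 30.7 CPM (Log2FC -1.40). In the time course 5 of these 6 genes fell from day 1 to day 14, where 36.0% of all genes did. *Erap1* went from 66.9 and 64.5 CPM on day 1 to 17.4 and 18.1 on day 14 (Log2FC -1.83, limma adjusted p = 3.82e-19), a course like that of *Tapbp*. The tapasin-related *Tapbpl* went from 29.0 and 28.1 CPM on day 1 to 12.5 and 12.3 on day 7 (Log2FC -1.14), rose to day 10 and was at 16.9 and 17.1 on day 14.

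Of the 3 proteasome activator genes, all 3 fell from day 1 to day 14 (median Log2FC -0.59, with 36.0% of all genes falling) and 2 were lower in CD61high cells (16.0% of all genes). Of 8 regulators of class I promoters, 1 fell from day 1 to day 14 (*Irf1*) and 5 rose, where 36.0% of all genes fell and 32.6% rose. In the sort 1 was lower (*Irf1*) and 2 higher, against 16.0% and 19.4% of all genes. *Irf1*, a transcription factor of the interferon response, went from 107 and 105 CPM on day 1 to 45.9 and 44.4 on day 7 (Log2FC -1.21, limma adjusted p = 7.58e-18) and to 40.8 and 41.5 on day 14. In the sort it was at 28.2, 32.1 and 30.2 CPM in CD61high and at 58.1, 60.0 and 53.5 in CD61low cells, groups that did not overlap (Log2FC -0.92). The subunits of the RFX and NF-Y complexes that bind the X and Y boxes had Log2FC values within 0.53 of 0 from day 1 to day 14 and within 0.43 of 0 in the sort.

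Of the 13 other class I heavy chain genes, 7 passed the filter in the time course, and 4 rose and 2 fell from day 1 to day 14, against 32.6% and 36.0% of all genes. In the sort 7 could be tested, of which 2 were lower (*H2-Q4*, *Cd1d1*) and 1 higher (*Mr1*, Log2FC 0.45, edgeR adjusted p = 7.83e-04), with a median Log2FC of -0.08, against 16.0% and 19.4% of all genes. *H2-Q4* rose from 21.0 and 20.9 CPM on day 1 to 52.3 and 59.4 on day 14 (Log2FC 1.37, limma adjusted p = 9.42e-17), yet it was lower in CD61high cells, at 61.9, 76.6 and 62.9 against 114, 123 and 107 CPM (Log2FC -0.77, edgeR adjusted p = 9.97e-05). *H2-T24* fell over the time course (Log2FC -1.001) and *Cd1d1*, which presents lipids, was lower in CD61high cells (Log2FC -1.25, edgeR adjusted p = 0.00528), both at means below 5 CPM. *H2-K1*, *Tap1*, *Psmb9* and *Nlrc5*, like *H2-Q4*, had a Log2FC above 0 from day 1 to day 14 and below 0 in the sort, while *Tap2*, *Tapbp*, *Psmb8* and *Psmb10* were below 0 in both. These are signs alone: *Psmb9* (edgeR adjusted p = 0.144) and *Psmb10* (0.0464) missed the threshold in the sort. From day 1 to day 14 *Nlrc5* (limma adjusted p = 0.0300) and *Psmb8* (0.0126) missed it.

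**Figure D5:**
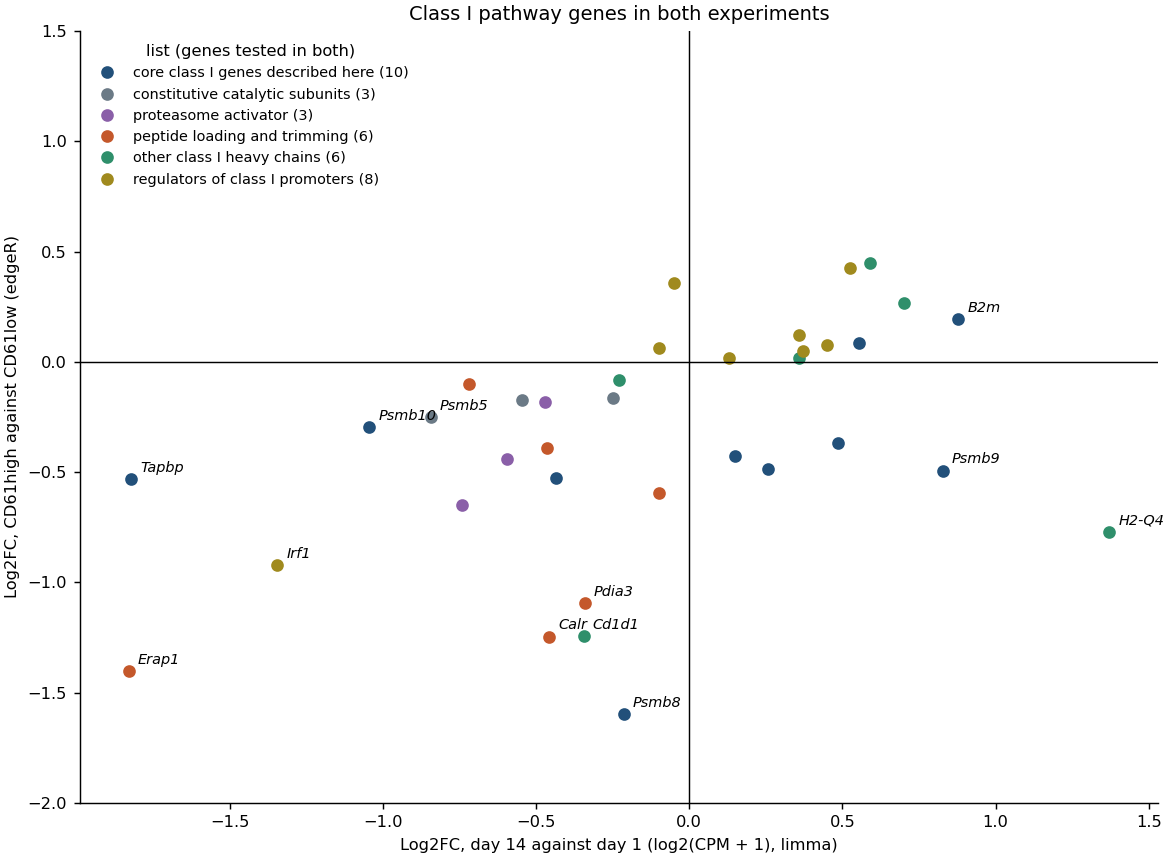
Each point is a gene of the class I pathway tested in both experiments, with its Log2FC from day 1 to day 14 (horizontal axis) and its Log2FC in CD61high relative to CD61low cells (vertical axis), coloured by list, and genes past 0.75 in either direction on either axis named. *Erap1*, *Irf1* and *Tapbp* lie low on both axes, *Psmb8* is the lowest point in the sort, and *H2-Q4* and *Psmb9* right of 0 but below it.

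The genes with a course most like the mean of the 10 over the 8 time course libraries, by Pearson's r of log2(CPM + 1) to their mean z score, were *Rtn3* (r = 0.98), *Rfk* (0.98), *Pqlc1* (0.98), *Brd8* (0.97) and *Foxm1* (0.97). In the sort *Rtn3* (Log2FC 0.45) and *Foxm1* (0.81) were higher in CD61high cells by edgeR, the opposite direction to the median of the 10 genes. The mean of the 10 is a poor summary of them, since the r of a single gene of the 10 to it ran from -0.05 for *H2-D1* to 0.99 for *Tap1*, and the points share libraries and days.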

How the data were processed

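Polyadenylated RNA of Ocy454 cells was sequenced in 14 libraries. For the time course alignment by STAR and counting by HTSeq preceded the CPM values that the authors deposited, which sum to 1000000 per library. The genome build of that table is not given in the sources used here, while the submitters' processing notes name GRCm39. All of the deposited CPM values (100.0%) lay within 0.01 of a whole read, so reads could be recovered. For the sort the authors ran Salmon against GRCm39 transcripts and deposited estimated counts, not normalized, and TPM values per transcript, with transcript lengths. Of 116747 transcripts 115556 matched GENCODE M39, with 99.3 to 99.4% of counts, and were summed per gene and rounded. All deposited columns of samples were used.

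For the time course, limma 3.58.1 (trended eBayes) was fitted to log2(CPM + 1) of all 8 libraries, keeping genes above 1 CPM in at least 1 library. The sort was tested with edgeR 4.0.16 (quasi-likelihood, TMM over all genes) keeping genes whose normalized counts reached 5 in each of the 6 libraries. p-values were adjusted by Benjamini-Hochberg over all genes tested, and calls required an adjusted p under 0.01 together with a Log2FC past 1 or -1. The share of immunoproteasome TPM was tested by exact permutation. The scripts were tested on simulated data. Alternatives included DESeq2 1.42.0, other scalings and filters, a length offset, the replicate block and each library left out. R 4.3.3, Python 3.11.15, pandas 2.3.3 and matplotlib 3.10.9 were used. The 10 genes, the other lists and the tests were chosen with earlier results of these data known. Named are all 10 genes, every called gene of the other lists (1 gene and 1 motif are not reported here), the constitutive catalytic subunits and the 5 genes of most similar course with a mean of at least 5 CPM. *Cd74*, *Zbtb22*, *Patl2* and the cell type markers were named outside this rule as context. Proteins were not compared here. Libraries of 1 day came from 1 line, so the p-values cover no spread beyond that of these cultures. Both limma and edgeR draw the spread of a gene toward a trend over all genes. The standard errors and p-values therefore rest in large part on other genes, and not only on the few libraries of the gene itself.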

Additional observations from a re-analysis of the deposited data

How the results depend on the processing

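The number of the 10 genes called was 2, 1, 0 and 2 in the steps from day 1 to 7, 7 to 10, 10 to 14 and 1 to 14 and 1 in the sort, and it was the same under each alternative run that kept the call rule, each library left out included. With the adjusted p below 0.01 alone the counts were 9, 5, 6, 8 and 6. The sources do not say that replicate numbers pair the libraries, and same-numbered libraries did not all deviate together (correlations of deviations of same-numbered libraries from -0.32 to 0.22 in the sort and from -0.03 to 0.06 in the time course), and with the replicate block the counts stayed at 2, 1, 0, 2 and 1, *Psmb8* in the sort had a Log2FC of -1.60 (edgeR adjusted p = 7.67e-05) and no gene of the 10 crossed the threshold. The immunoproteasome share differed by -8.26 percentage points on estimated counts, by -8.44 without *Psmb10* and *Psmb7*, by -2.03 without *Psmb8* and *Psmb5* (added after seeing the data), and by -7.35 to -6.40 with 1 library left out.

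Of 782 values of single genes under an alternative, 745 kept their direction and side of the threshold, 24 lost and 5 gained a pass, and 8 changed sign, all of values that missed the threshold. *H2-D1* in the sort changed sign by library size alone (-0.21), when pooled with *H2-K1* and the H2-Q genes (-0.12), and without CD61low replicate 3 (-0.00051) or CD61high replicate 2 (-0.0044, with 0.15 the highest value with 1 library left out). *B2m* in the sort changed sign by library size alone (-0.11), and from day 10 to day 14 without day 14 replicate 2 (-0.013, against 0.098 without replicate 1). From day 7 to day 10 *H2-K1* changed sign under quantile normalization (0.012) and *Psmb10* without day 7 replicate 1 (0.0018, against -0.13 without replicate 2). The cause was not tested. The gained passes were *Psmb9* from day 1 to day 7 with TMM, quantile normalization and edgeR (adjusted p = 0.00520 to 0.00690), *Nlrc5* from day 1 to day 14 by edgeR (0.00792) and *Psmb10* in the sort by library size alone (0.00115). An offset for transcript length took *H2-K1* (edgeR adjusted p = 0.0175) and *Nlrc5* (0.0220) out of the passes in the sort. The lowest depth was that of *Psmb9* in the sort, with 91.0 to 258 estimated counts a library, and whether it bears on the missed threshold was not tested. Proteins and surface class I were not measured, so the values speak of RNA alone.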
